A study of Homo sapiens with 6 samples.

Results

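The vascular endothelial growth factor (VEGF) ligands and their receptors were followed in 6 RNA libraries from bladder cancer cells. The members were chosen by gene symbol alone and were the ligands *VEGFA*, *VEGFB*, *VEGFC* and *PGF*, the receptor tyrosine kinases *FLT1*, *KDR* and *FLT4*, and the co-receptors *NRP1* and *NRP2*. All 9 were found among the 50868 genes with values. The RNA came from UM-UC-3 and 5637, both established human bladder cancer lines, the first grown in DMEM and the second in RPMI medium. In each line, cells carried a lentiviral hairpin under puromycin selection, namely a control hairpin (sh-NC) or 1 of 2 hairpins against the long noncoding RNA *LNMAT1* (sh-LNMAT1#1 and sh-LNMAT1#2). Each construct in each line had 1 library, so no difference between single libraries could be checked against replicates. Levels were deposited as FPKM, the fragments of a gene scaled to its length and to the library's depth.

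VEGF-A, VEGF-B and placental growth factor (PGF) bind FLT1, and VEGF-A also binds KDR, the receptor through which it drives growth of blood vessels. VEGF-C binds FLT4, the receptor of lymphatic endothelium, and drives growth of lymphatic vessels, and its fully processed form also binds KDR. NRP1 and NRP2 lack kinase activity, hold ligands for these receptors and also bind class 3 semaphorins. Carcinoma cells commonly secrete the ligands, whereas the kinase receptors are mostly made by endothelial cells. The study concerned spread of bladder cancer to lymph nodes and the part of VEGF-C in it.

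The libraries held 19375000 to 24707000 fragments, read from single-exon genes whose FPKM were whole multiples of the value of 1 fragment. The library labelled 5637 sh-NC stood apart from its label. Over the 12717 genes that averaged 1 FPKM or more, its log2 levels had a Pearson r of 0.92 to 0.98 with the UM-UC-3 libraries, the highest with UM-UC-3 sh-LNMAT1#1, and of 0.62 with either 5637 hairpin library. These correlations run across genes, which are not independent replicates. *EPCAM*, an epithelial adhesion gene, was 33.8 and 35.6 FPKM in the 5637 hairpin libraries, 0.0104 in that labelled sh-NC and at most 0.0210 FPKM in UM-UC-3. Every difference from sh-NC in 5637 rests on this library, and the lines are also compared without it. *LINC01296*, the annotated gene of *LNMAT1*, stood in UM-UC-3 at 14.2 FPKM with sh-NC, 6.20 with sh-LNMAT1#1 and 6.70 with sh-LNMAT1#2. Among libraries labelled 5637 it was 11.7 FPKM with sh-NC, 4.70 with sh-LNMAT1#1 and 2.14 with sh-LNMAT1#2. Copies of this gene elsewhere in the genome share its sequence, so its level is uncertain.

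The ligands *VEGFA*, *VEGFB* and *VEGFC* were present in every library at 2.15 to 16.4 FPKM, *NRP1* and *NRP2* at 0.553 to 4.23 FPKM, and *PGF*, *FLT4*, *KDR* and *FLT1* were below 1 FPKM throughout. The co-receptors were higher in the 5637 hairpin libraries than in all other libraries, and *FLT4* was listed at 0 only in those 2 libraries. With both hairpins, *VEGFA* was above the control of UM-UC-3 and below the library labelled 5637 sh-NC. *VEGFC* with any hairpin was within 1.3-fold of the library labelled sh-NC for that line.

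**Figure D1:**
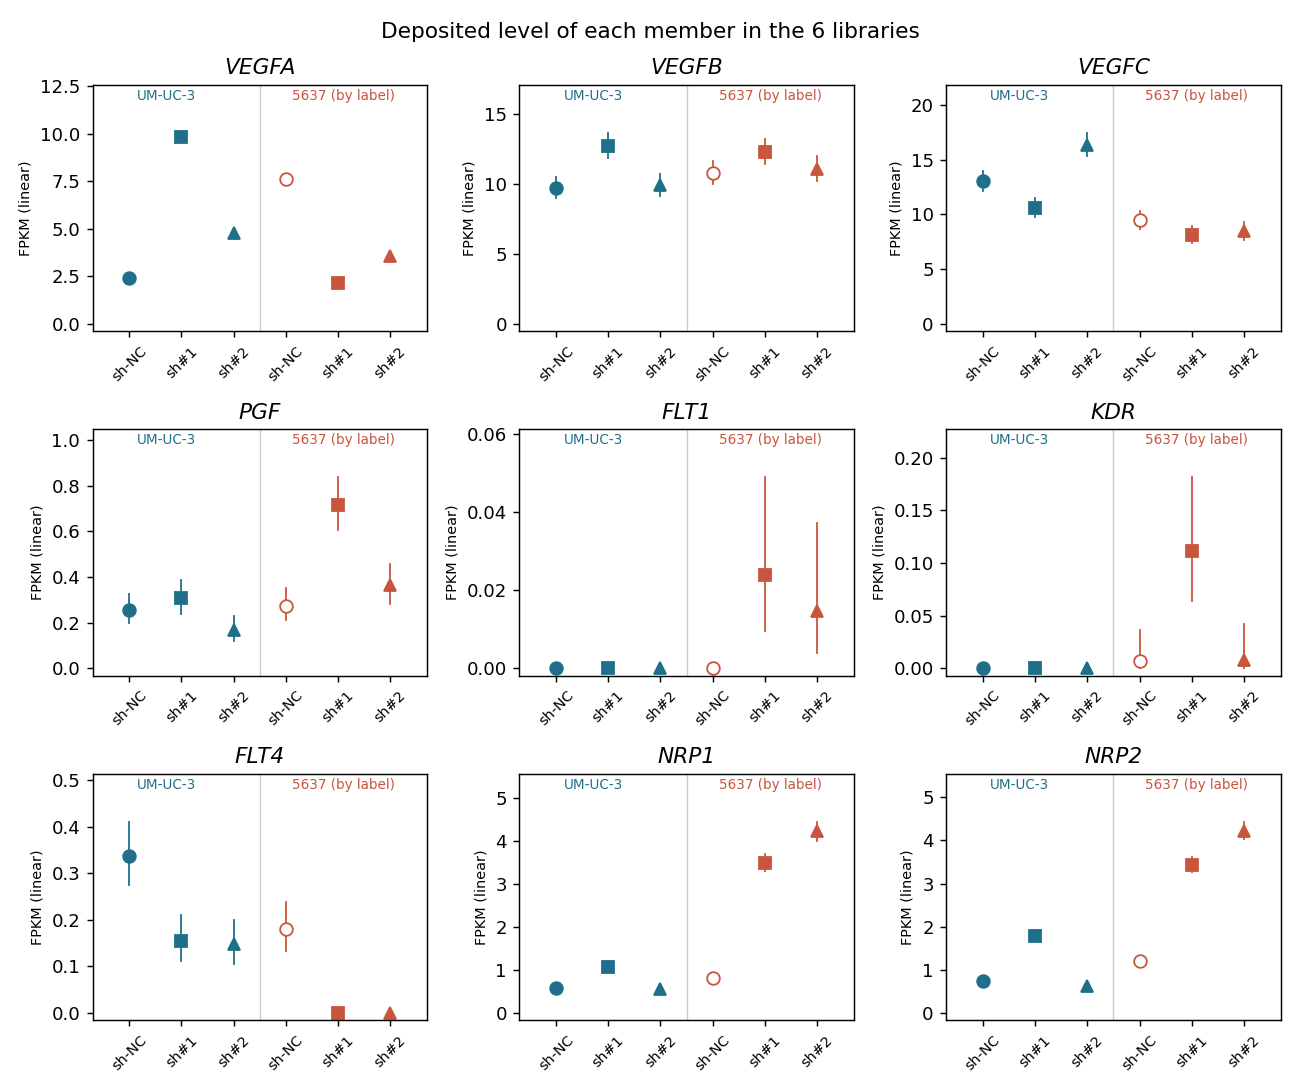
Deposited level of each member (FPKM, linear axis, 1 panel per gene) in the 6 libraries, with UM-UC-3 in blue and libraries labelled 5637 in red; the open circle is the library labelled 5637 sh-NC, sh#1 and sh#2 stand for sh-LNMAT1#1 and sh-LNMAT1#2, and lines are 95% counting intervals of values above 0. *NRP1* and *NRP2* are highest in the 2 hairpin libraries of 5637, where *FLT4* is listed at 0, and either hairpin library has *VEGFA* above sh-NC in UM-UC-3 and below it in 5637.

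*VEGFC* (ENSG00000150630) lies on the minus strand of chromosome 4 from 176683538 to 176792727 (GRCh38). UM-UC-3 held 13.0 FPKM with sh-NC, 10.6 with sh-LNMAT1#1 and 16.4 with sh-LNMAT1#2, values that rest on 799, 584 and 932 fragments. The libraries labelled 5637 held 9.49 FPKM with sh-NC, 8.12 with sh-LNMAT1#1 and 8.45 with sh-LNMAT1#2, from 528, 419 and 406 fragments. The hairpin libraries of UM-UC-3 lay on either side of their control, and all 3 UM-UC-3 values lay above all 3 values labelled 5637. As a ratio of fragments scaled to depth, *VEGFC* in UM-UC-3 was 0.811 times the control with sh-LNMAT1#1 (95% interval 0.727 to 0.903) and 1.26 times with sh-LNMAT1#2 (1.14 to 1.38). These intervals, exact and conditional on the fragment totals, cover counting error only, and so do all intervals below. Against the library labelled 5637 sh-NC the ratios were 0.856 (0.751 to 0.975) and 0.891 (0.781 to 1.02). The 2 hairpins in UM-UC-3 differed from each other by 1.55-fold (1.396 to 1.72), more than either differed from the control.

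The 250 bases upstream of the RefSeq start of *VEGFC* are shown as the promoter of the lymphatic ligand that the study turned on. They are the minus strand of chr4:176792923-176793172 (GRCh38.p14), written 5′ to 3′, and hold no base of an exon annotated in GENCODE 29. Capitals mark matches on either strand to GGGCGG (the GC box), ACGTG or GCGTG (letters in the core of hypoxia response elements) and TATAAA (the TATA box). Of all 35116 windows of this length in the RefSeq table, 42.6% hold GGGCGG, 18.5% ACGTG, 32.2% GCGTG and 10.7% TATAAA.
VEGFC: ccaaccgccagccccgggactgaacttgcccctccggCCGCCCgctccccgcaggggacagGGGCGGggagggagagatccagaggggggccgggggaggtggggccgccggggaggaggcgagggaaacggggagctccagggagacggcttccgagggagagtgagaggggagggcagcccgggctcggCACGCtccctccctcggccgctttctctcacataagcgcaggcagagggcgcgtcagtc
The *VEGFC* window holds 2 matches to GGGCGG and 1 to GCGTG, and 74% of its bases are G or C.

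*VEGFA* (ENSG00000112715; plus strand of chromosome 6, 43770184 to 43786487) encodes the main ligand of blood vessel growth. UM-UC-3 held 2.42 FPKM with sh-NC, 9.82 with sh-LNMAT1#1 and 4.80 with sh-LNMAT1#2, from 1657, 6072 and 3056 fragments. The libraries labelled 5637 held 7.60 FPKM with sh-NC, 2.15 with sh-LNMAT1#1 and 3.56 with sh-LNMAT1#2, from 4737, 1240 and 1917 fragments. The control was the lowest library of UM-UC-3 and the library labelled sh-NC the highest of 5637, and the values of the lines overlapped. By fragments, *VEGFA* was 4.06-fold higher with sh-LNMAT1#1 (3.85 to 4.29) and 1.99-fold higher with sh-LNMAT1#2 (1.87 to 2.11) in UM-UC-3. Against the library labelled 5637 sh-NC it was lower by 3.54-fold (3.33 to 3.77) and 2.13-fold (2.02 to 2.25). The hairpins of UM-UC-3 differed from each other by 2.05-fold (1.96 to 2.14). The level in the library labelled 5637 sh-NC was 3.15 times that of UM-UC-3 sh-NC (2.98 to 3.33) and 0.775 times that of UM-UC-3 sh-LNMAT1#1 (0.746 to 0.805). In GENCODE 29, 188 exon bases of *VEGFA* also belong to a gene on the opposite strand, and whether the counting used strand is not given in the sources used here.

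*VEGFB* (ENSG00000173511; plus strand of chromosome 11, 64234538 to 64238793), whose product binds FLT1 and NRP1, was the steadiest member. Its level in UM-UC-3 was 9.70 FPKM with sh-NC, 12.7 with sh-LNMAT1#1 and 9.88 with sh-LNMAT1#2. Among libraries labelled 5637 it was 10.7 FPKM with sh-NC, 12.3 with sh-LNMAT1#1 and 11.0 with sh-LNMAT1#2. Its highest level was 1.31 times its lowest, and the lines overlapped. The largest ratio to a control was 1.31 (1.18 to 1.46), with sh-LNMAT1#1 in UM-UC-3.

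*PGF* (ENSG00000119630; minus strand of chromosome 14, 74941834 to 74955784), a ligand of FLT1, stood in UM-UC-3 at 0.256 FPKM with sh-NC, 0.306 with sh-LNMAT1#1 and 0.168 with sh-LNMAT1#2, from 64, 69 and 39 fragments. Among libraries labelled 5637 it was 0.273 FPKM with sh-NC, 0.713 with sh-LNMAT1#1 and 0.362 with sh-LNMAT1#2, from 62, 150 and 71 fragments. The 5637 hairpin libraries were above all others, and the library labelled 5637 sh-NC lay among those of UM-UC-3. *PGF* with sh-LNMAT1#1 was 2.61 times the level of the library labelled 5637 sh-NC (1.93 to 3.57), and with sh-LNMAT1#2 the ratio was 1.33, with an interval (0.930 to 1.90) that includes 1.

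*FLT4* (ENSG00000037280; minus strand of chromosome 5, 180601506 to 180649624), the receptor of VEGF-C on lymphatic endothelium, was low in every library. UM-UC-3 held 0.337 FPKM with sh-NC, 0.155 with sh-LNMAT1#1 and 0.147 with sh-LNMAT1#2, from 99, 41 and 40 fragments. The library labelled 5637 sh-NC held 0.180 FPKM, from 48 fragments, and 0 fragments were counted with either hairpin in 5637. The control was the highest library in UM-UC-3, and the library labelled 5637 sh-NC lay between UM-UC-3 sh-LNMAT1#1 and sh-NC. By fragments, *FLT4* in UM-UC-3 was 2.18-fold lower with sh-LNMAT1#1 (1.499 to 3.21) and 2.30-fold lower with sh-LNMAT1#2 (1.58 to 3.41). In 5637, with 3 fragments put in place of 0, it was 14.8-fold lower with sh-LNMAT1#1 and 13.8-fold lower with sh-LNMAT1#2 than in the library labelled 5637 sh-NC. These folds leave out the counting error of the 48 fragments in that library (95% interval 35.4 to 63.6). Without that library and computed in the same way, *FLT4* in 5637 was 12.8-fold lower than in UM-UC-3 with sh-LNMAT1#1 and 11.3-fold lower with sh-LNMAT1#2. Taken as log2(FPKM + 0.5), a scale on which low genes seem to change less, *FLT4* changed by -0.35 and -0.37 in UM-UC-3.

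*KDR* (ENSG00000128052; minus strand of chromosome 4, 55078477 to 55125589) and *FLT1* (ENSG00000102755; minus strand of chromosome 13, 28300344 to 28495128) encode the receptors that VEGF-A binds on blood endothelium. *KDR* had 0 fragments in the UM-UC-3 libraries, 1 in the library labelled 5637 sh-NC, 16 with sh-LNMAT1#1 and 1 with sh-LNMAT1#2, and its highest level was 0.112 FPKM. *FLT1* had 0 fragments in the UM-UC-3 libraries and the library labelled 5637 sh-NC, 7 with sh-LNMAT1#1 and 4 with sh-LNMAT1#2, at most 0.0237 FPKM. A count of 0 allows up to 3 fragments in a library. With 3 put in place of 0, *KDR* in 5637 sh-LNMAT1#1 was 5.71-fold higher than with the same hairpin in UM-UC-3, whereas the other libraries were at or under that floor. This fold leaves out the counting error of the 16 fragments (95% interval 9.15 to 26.0). *KDR* with sh-LNMAT1#1 was 14.9 times the level with sh-LNMAT1#2 in 5637, with an interval of 2.32 to 625. The fragments of *KDR* and *FLT1* are the smallest whole numbers that match the deposited values, because the gene positions differ from those of GENCODE 29. The promoter of *KDR* is shown for a receptor near the floor. It is the minus strand of chr4:55125596-55125845 (GRCh38.p14), outside annotated exons, with capitals as above.
KDR: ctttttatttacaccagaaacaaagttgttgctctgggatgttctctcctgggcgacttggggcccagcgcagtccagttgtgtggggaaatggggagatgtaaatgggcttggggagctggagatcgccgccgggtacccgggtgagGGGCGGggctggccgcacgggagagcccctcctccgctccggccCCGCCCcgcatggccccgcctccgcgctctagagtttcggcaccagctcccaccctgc
The *KDR* window holds 2 matches to GGGCGG and none to the other motifs, and 65.2% of its bases are G or C.

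*NRP1* (ENSG00000099250; minus strand of chromosome 10, 33177492 to 33336262), a co-receptor for VEGF-A and for SEMA3A, stood in UM-UC-3 at 0.578 FPKM with sh-NC, 1.07 with sh-LNMAT1#1 and 0.553 with sh-LNMAT1#2, from 251, 421 and 223 fragments. The libraries labelled 5637 held 0.816 FPKM with sh-NC, 3.49 with sh-LNMAT1#1 and 4.22 with sh-LNMAT1#2, from 322, 1276 and 1438 fragments. The library labelled 5637 sh-NC lay inside the range of UM-UC-3, and the 5637 hairpin libraries lay above all others. By fragments, *NRP1* was 1.86-fold higher with sh-LNMAT1#1 in UM-UC-3 (1.59 to 2.18), whereas with sh-LNMAT1#2 the ratio was 0.957 (0.795 to 1.15). Against the library labelled 5637 sh-NC it was 4.27-fold (3.78 to 4.85) and 5.17-fold (4.58 to 5.85) higher. In GENCODE 29, 561 exon bases of *NRP1* also belong to a gene on the opposite strand.

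*NRP2* (ENSG00000118257; plus strand of chromosome 2, 205681990 to 205798133), a co-receptor for VEGF-C and for SEMA3F, stood in UM-UC-3 at 0.727 FPKM with sh-NC, 1.79 with sh-LNMAT1#1 and 0.629 with sh-LNMAT1#2, from 361, 802 and 290 fragments. Among libraries labelled 5637 it was 1.20 FPKM with sh-NC, 3.44 with sh-LNMAT1#1 and 4.23 with sh-LNMAT1#2, from 543, 1436 and 1645 fragments. As for *NRP1*, the hairpin libraries of 5637 lay above all others and UM-UC-3 sh-LNMAT1#1 above the rest of its line. By fragments, *NRP2* in UM-UC-3 was 2.46-fold higher with sh-LNMAT1#1 (2.17 to 2.80), and with sh-LNMAT1#2 the ratio was 0.865 (0.738 to 1.01). Against the library labelled 5637 sh-NC it was 2.85-fold (2.58 to 3.15) and 3.51-fold (3.18 to 3.87) higher. A gene on the opposite strand shares 147 exon bases with *NRP2*. The promoter of *NRP2* is shown for a member that differed between the lines. It is the plus strand of chr2:205682251-205682499 (GRCh38.p14), the 249 bases of the window that precede the first annotated exon base within it, with capitals as above. This stretch lies inside the annotated span of *NRP2*, which starts at 205681990, and so is not upstream of the whole gene.
NRP2: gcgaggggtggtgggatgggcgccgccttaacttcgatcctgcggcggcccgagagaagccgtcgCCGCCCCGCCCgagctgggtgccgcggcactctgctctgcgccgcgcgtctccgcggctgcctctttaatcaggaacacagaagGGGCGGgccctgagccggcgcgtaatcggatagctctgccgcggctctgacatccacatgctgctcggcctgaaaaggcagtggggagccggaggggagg
The *NRP2* window holds 3 matches to GGGCGG, 2 of which share a base, and none to the other motifs, and 69.9% of its bases are G or C. All 3 windows shown hold the GC box. The RefSeq table matched 6 of the 9 members, and *VEGFA*, *FLT4* and *NRP1* were not among them.

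The order of levels between genes depended on the length by which the fragments were divided. The deposited values fitted a length in which every distinct exon entry of a gene is added up, so that bases shared by several entries count repeatedly. With this length, 93.2% of 19306 multi-exon genes gave whole fragments in all 6 libraries, within 0.05 of a whole number. Among the 15146 genes for which it differs from the length of the merged exons, 91.6% were whole with the summed length and 0.3% with the merged length. The length behind the deposited value was 1.92 times the merged exon length of GENCODE 29 for *VEGFA*, 1.79 times for *VEGFB* and 1.02 times for *VEGFC*. For *VEGFA* that length was 27766 bases, against 24746 for the summed exons of GENCODE 29.

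In the deposited FPKM, *VEGFC* was the highest member in UM-UC-3 sh-NC and UM-UC-3 sh-LNMAT1#2, and *VEGFB* in the other 4 libraries. Per kilobase of merged exons, *VEGFB* was the highest in all 6 libraries, at 17.3 to 22.7 fragments, scaled to depth as in FPKM. On this scale *VEGFC* was 13.4 in UM-UC-3 sh-NC, 10.8 with sh-LNMAT1#1, 16.8 with sh-LNMAT1#2, 9.72 in the library labelled 5637 sh-NC, and 8.32 and 8.66 with the hairpins in 5637. The 2 genes stood closest in UM-UC-3 sh-LNMAT1#2, *VEGFB* at 17.7 and *VEGFC* at 16.8. *VEGFA* passed *VEGFC* in UM-UC-3 sh-LNMAT1#1, at 18.9, and in the library labelled 5637 sh-NC, at 14.6, whereas by deposited FPKM it stood below *VEGFC* in all 6. For *VEGFA* the merged length is that of GENCODE 29, although the length behind its deposited value did not match that release. *NRP1* and *NRP2* reached 5.32 and 4.97 with sh-LNMAT1#1 in 5637 and 6.44 and 6.11 with sh-LNMAT1#2, and which of the pair was higher in 5637 sh-LNMAT1#2 changed with the scale. Comparisons of 1 gene between libraries do not depend on the length.

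**Figure D2:**
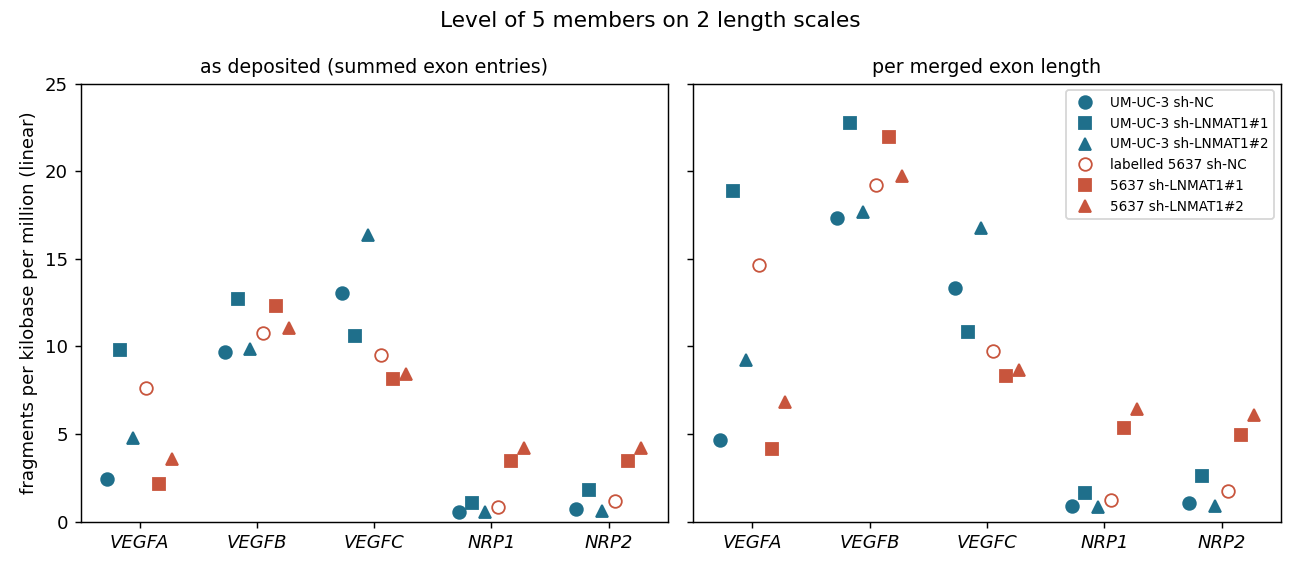
Level of 5 members in each library (fragments per kilobase, scaled to depth as in FPKM, linear axis), as deposited on the left and per kilobase of merged exons on the right; symbols and colours mark the libraries, the open circle being the library labelled 5637 sh-NC. *VEGFC* is the highest gene in 2 libraries on the left, and *VEGFB* is the highest in all 6 on the right.

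To find whether knockdown moved the members within a line, each hairpin library was set against sh-NC on the scale of log2(FPKM + 0.5), and a gene was counted where both hairpins differed at least 2-fold in 1 direction. In UM-UC-3, 4 members averaged 1 FPKM or more (*VEGFA*, *VEGFB*, *VEGFC* and *NRP2*). None of them reached 2-fold with both hairpins in either direction, and of all 12025 genes 1.08% were higher and 0.358% lower by that rule. *VEGFA* came nearest, with log2 changes of 1.82 and 0.86, and *NRP2* changed by 0.90 and -0.12. Against the library labelled 5637 sh-NC, 2 of 5 members, *NRP1* and *NRP2*, were at least 2-fold higher with both hairpins and 0 were lower, where 18.5% of all 12791 genes were higher and 12.3% lower. *NRP1*, at 0.816 FPKM in that library, was kept only through the hairpin libraries in which it was high, so the count carries no weight for it. The log2 differences were 1.60 and 1.84 for *NRP1* and 1.21 and 1.47 for *NRP2*. For *VEGFA* they were -1.61 and -0.996, the second just short of 2-fold, and with a pseudocount of 0.1 or with 75th-percentile scaling *VEGFA* passed. The median log2 change of the members kept was 0.64 and 0.17 with the hairpins of UM-UC-3, where all genes had -0.00406 and 0.02.

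**Figure D3:**
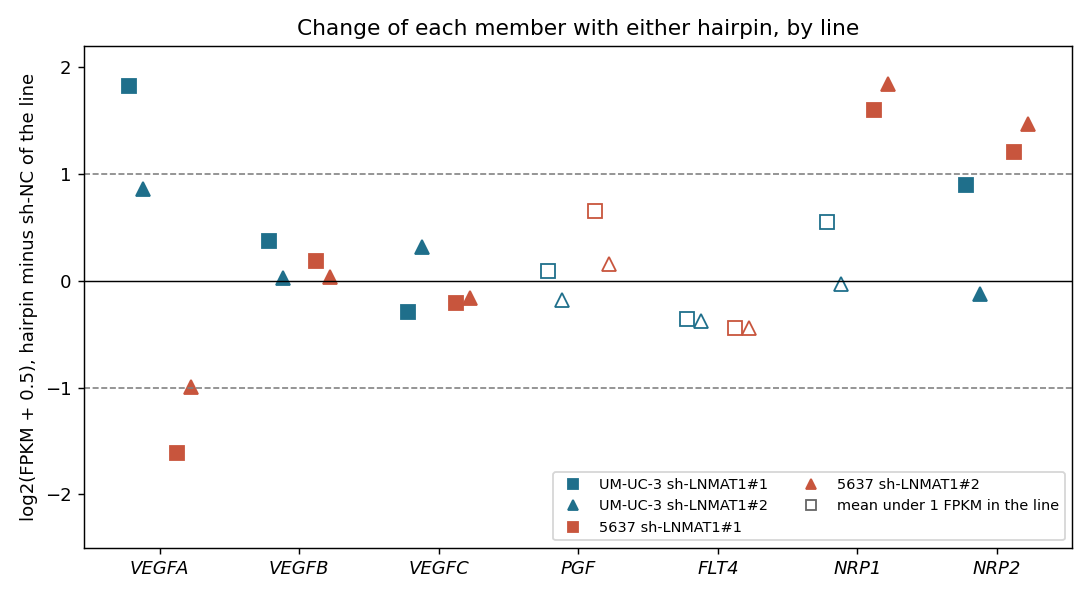
Log2 change of 7 members with either hairpin (log2(FPKM + 0.5), hairpin library minus the sh-NC library of the line), by line (colour) and hairpin (square or triangle), with dashed lines at 2-fold and open symbols where the mean over the line was under 1 FPKM; the 5637 values rest on the library labelled 5637 sh-NC, and *KDR* and *FLT1*, near 0 in most libraries, are left out. *VEGFA* lies above 0 in UM-UC-3 (1.82 and 0.86) and below 0 in 5637 (-1.61 and -0.996), and *NRP1* and *NRP2* pass 2-fold with both hairpins only in 5637.

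Pooled over both lines, the 4 hairpin libraries were compared with the 2 sh-NC libraries by limma with the line as a covariate, adjusted by Benjamini-Hochberg over all 12717 genes that averaged 1 FPKM or more. None of the 5 members tested and 0% of all genes passed an adjusted p of 0.05, and 811 genes had an unadjusted p under 0.05, which included no member. Nothing says that the libraries came from separate cultures, so p-values measure only the spread between these libraries. *NRP1* had the largest difference of the members, 0.99 ± 0.44 (SE; limma adjusted p = 0.569), and *VEGFC* differed by -0.09 ± 0.26 (limma adjusted p = 0.904). *VEGFA* differed by 0.02 ± 0.65. Without the library labelled 5637 sh-NC the *VEGFA* difference was 1.34 (limma adjusted p = 0.804), and without UM-UC-3 sh-NC it was -1.31 (limma adjusted p = 0.0968). Without UM-UC-3 sh-NC, when the library labelled 5637 sh-NC was the only control, *NRP1* was called at 1.72 (limma adjusted p = 0.0173), as were 4025 of all 12822 genes. Without the library labelled 5637 sh-NC, *NRP1* differed by 0.26 (limma adjusted p = 0.906).

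A comparison of the lines that leaves out both sh-NC libraries set the 2 hairpin libraries of 5637 against those of UM-UC-3 by limma. The 2 different hairpins stood in for replicates of a line, which left 2 residual degrees of freedom. The p-values thus measure only the spread between these hairpin libraries, here and in the lists below. *NRP1* was higher in 5637 by 1.75 ± 0.27 (SE; limma adjusted p = 0.00667) and *NRP2* by 1.42 ± 0.38 (limma adjusted p = 0.0341) on the log2 scale. Of all 12844 genes 20.1% were called higher and 18.4% lower. *NRP1* averaged 0.814 FPKM in the UM-UC-3 hairpin libraries and passed the filter only through 5637, where it was high. Its call with the filter therefore carries no weight. *NRP2* averaged 1.21 FPKM in the UM-UC-3 hairpin libraries. With no filter on low values, *NRP1* was called (limma adjusted p = 0.0372) and *NRP2* was not (limma adjusted p = 0.113). *VEGFA* differed by -1.17 ± 0.40 (limma adjusted p = 0.068), *VEGFC* by -0.64 ± 0.26 (limma adjusted p = 0.111) and *VEGFB* by 0.05 ± 0.22 (limma adjusted p = 0.864), none past the threshold. With the hairpin as a covariate, which left 1 residual degree of freedom, *VEGFA* was called (limma adjusted p = 0.0423). By fragments, *NRP1* in 5637 was 3.25 times (2.91 to 3.63) the UM-UC-3 level with sh-LNMAT1#1 and 7.64 times (6.63 to 8.83) with sh-LNMAT1#2. For *NRP2* these ratios were 1.92 (1.76 to 2.09) and 6.72 (5.93 to 7.64). The *NRP1* call was lost without 5637 sh-LNMAT1#1 (limma adjusted p = 0.0796) or 5637 sh-LNMAT1#2 (limma adjusted p = 0.0928), and so was that of *NRP2* (limma adjusted p = 0.195 and 0.233).

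**Figure D4:**
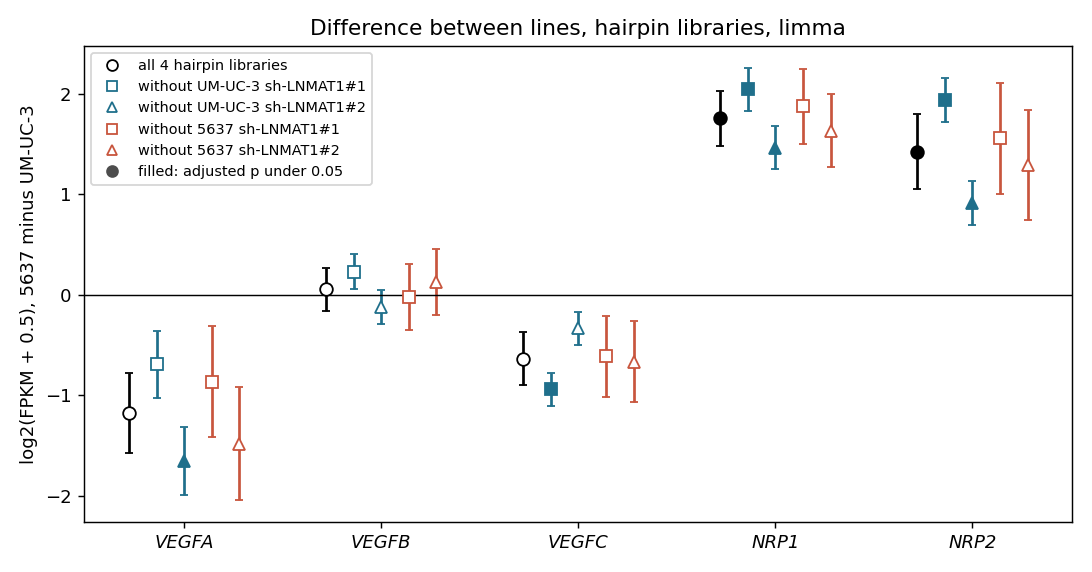
Difference between the lines with the same hairpins for 5 members (log2(FPKM + 0.5), 5637 minus UM-UC-3, from limma; bars are standard errors), with all 4 hairpin libraries and without each in turn, filled where the adjusted p was under 0.05. *NRP1* (1.75) and *NRP2* (1.42) are above 0 in every fit and filled with all 4 libraries, but open when either 5637 library is left out. With all 4 libraries *NRP1* passed the filter only through 5637, where it was high, so that call carries no weight.

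By ranges alone, the 5637 hairpin libraries lay above all UM-UC-3 libraries for *NRP1* and *NRP2* and below them for *VEGFC* among the 5 members that averaged 1 FPKM or more, where 31.4% of 12717 genes lay above and 34.5% below. Of the other 4 members, *PGF*, *FLT1* and *KDR* lay above and *FLT4* below. For *KDR* this rests on 16 and 1 fragments and for *FLT1* on 7 and 4, against 0 in UM-UC-3. A count of 0 allows up to 3 fragments. No share of genes under 1 FPKM was computed for these 4 members. The library labelled 5637 sh-NC lay inside the UM-UC-3 range for 7 of the 9 members, *VEGFC* and *KDR* being the exceptions, and inside the range of the 5637 hairpin libraries for 0 of 9. Among the 12717 genes that averaged 1 FPKM or more, 54.0% had that library inside the UM-UC-3 range. Of the 5 members in that set, *VEGFA*, *VEGFB*, *NRP1* and *NRP2* lay inside it and *VEGFC* did not. For the range of the 5637 hairpin libraries, which spans only 2 libraries, the share of all genes was not computed. *FLT1* counted as inside only because it was 0 in all the libraries concerned, and *KDR* as outside only through 1 fragment against 0. Of the 5 members above 1 FPKM, 4 were nearest to UM-UC-3 sh-LNMAT1#1 in the library labelled 5637 sh-NC, a count for which the share of all genes was not computed.

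Related genes were read from lists by role, each against the same shares of all genes for the lines (20.1% higher and 18.4% lower in 5637). Among the remaining ligand and the proteins that process VEGF-C, 3 of 4 tested genes were higher in 5637 than in UM-UC-3 and 0 lower. *FURIN*, a proprotein convertase that cleaves VEGF-C, was 5.54 and 6.03 FPKM with the hairpins in UM-UC-3 and 37.9 and 36.3 in 5637 (2.58 ± 0.19; limma adjusted p = 0.000508). *CCBE1*, which promotes the processing of VEGF-C, was 1.42 and 0.739 FPKM in UM-UC-3 and 4.45 and 4.04 in 5637 (1.62 ± 0.28; limma adjusted p = 0.00902), and *CTSD*, encoding cathepsin D, differed by 1.22 ± 0.22 (limma adjusted p = 0.0111). *ADAMTS14*, a procollagen protease of the same family as the VEGF-C protease ADAMTS3, was 4.03 FPKM with sh-NC in UM-UC-3 and 0.945 and 1.55 with the hairpins, at least 2-fold lower with both. VEGF-D, listed under its older symbol *FIGF*, was at most 0.254 FPKM.

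Of 9 semaphorin and plexin genes tested, a list read because class 3 semaphorins also bind neuropilins, 7 were higher and 1 lower in 5637. Of the 9, 3 passed the filter through 5637 alone (*PLXNA2*, *PLXNA3* and *PLXNB1*) and 1 through UM-UC-3 alone, and of the 5 that averaged 1 FPKM or more in the hairpin libraries of both lines, 4 were higher and 0 lower. *SEMA3E*, not tested because of the filter, was 1.53 and 1.42 FPKM with the hairpins in UM-UC-3 and 0 and 0.0133 in 5637. The plexins *PLXNA3* (0.382 and 0.245 FPKM with the hairpins in UM-UC-3, 9.74 and 7.44 in 5637), *PLXNA2* (0.133 and 0.0105, 3.43 and 3.09), *PLXNB2* (9.75 and 11.0, 53.4 and 47.1) and *PLXNB1* (1.03 and 0.927, 10.3 and 6.98) were among those called higher. Within UM-UC-3, none of the 8 genes kept differed 2-fold with both hairpins.

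Of 10 angiopoietins and other angiogenic factors tested, 4 were higher and 4 lower in 5637, but 3 passed the filter through 5637 alone and 4 through UM-UC-3 alone. Of the 3 that averaged 1 FPKM or more in the hairpin libraries of both lines, 1 was higher and 0 lower. *THBS1* passed through 5637 alone and *ANGPTL4*, *FGF2* and *ANGPT4* through UM-UC-3 alone, where each was high, so those calls carry no weight. *THBS1*, encoding the angiogenesis inhibitor thrombospondin 1, was 0.0803 and 0.293 FPKM with the hairpins in UM-UC-3 and 44.1 and 69.1 in 5637. *ANGPTL4* ran the other way, at 36.2 and 7.23 FPKM in UM-UC-3 and 0.0541 and 0.129 in 5637, and so did *FGF2* (4.94 and 4.41, then 0.412 and 0.498) and *ANGPT4*, a ligand of the receptor TEK (2.44 and 2.25, then 0.0206 and 0.0221).

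Of 14 hypoxia factors and targets tested, a set that bears on *VEGFA* as a known target of hypoxia-inducible factors, 4 were higher and 1 lower in 5637. *VHL*, which marks these factors for degradation, was 8.33 and 9.56 FPKM with the hairpins in UM-UC-3 and 40.7 and 42.9 in 5637 (2.17 ± 0.19; limma adjusted p = 0.000919). Within UM-UC-3, where 0.358% of all genes were at least 2-fold below sh-NC with both hairpins and 1.08% above it, 2 of 14 such genes were below and 0 above, *LDHA*, a lactate dehydrogenase subunit, at 72.5 FPKM with sh-NC, 28.3 and 23.0, and *BNIP3*, a mitochondrial target, at 37.6, 15.7 and 17.9. *CA9* was 1.21, 0.636 and 1.06 FPKM in UM-UC-3 and 1.83 and 2.17 with the hairpins in 5637. It passed the filter through 5637 alone, where it was high, so its call as higher carries no weight. Among the 13 genes of the list that averaged 1 FPKM or more in the hairpin libraries of both lines, 3 were higher and 1 lower in 5637. *EGLN3*, a prolyl hydroxylase, was 1.59 and 1.47 FPKM with the hairpins in 5637 against 0.0278 in the library labelled 5637 sh-NC. In UM-UC-3 it was 0.0463 FPKM with sh-NC, 0.0233 with sh-LNMAT1#1 and 0.0272 with sh-LNMAT1#2, so that library was near the UM-UC-3 level. The median difference of this list between the lines was 0.28, where that of all genes was -0.02.

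Of 19 signal transducers of the receptors tested, 3 were higher and 3 lower in 5637, and within UM-UC-3 none of 18 differed 2-fold with both hairpins. Of the 19, 1 passed the filter through 5637 alone (*SRC*) and 1 through UM-UC-3 alone (*SHC2*). Of the 17 that averaged 1 FPKM or more in the hairpin libraries of both lines, 2 were higher and 2 lower. *SRC* was 0.907 and 0.841 FPKM with the hairpins in UM-UC-3 and 12.9 and 14.5 in 5637. *PRKCA*, encoding protein kinase C alpha, was 22.6 and 15.3 FPKM in UM-UC-3 and 3.05 and 3.57 in 5637, and the adaptor *SHC2* 3.13 and 3.77 against 0.107 and 0.176.

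Endothelial markers were low, whereas single markers of other cell types were not. The summed level of 6 lymphatic endothelial markers, of which *FLT4* is 1, was 1.18 to 2.10 FPKM in UM-UC-3, 1.27 in the library labelled 5637 sh-NC and 0.527 to 0.6004 in the 5637 hairpin libraries, and *SOX18* alone reached 1 FPKM. The defining genes *PROX1*, *LYVE1*, *PDPN* and *CCL21* were at most 0.0388 FPKM, while *FLT4* reached 0.337. The 10 blood endothelial markers, with *KDR* among them, summed to 0.452 to 1.65 FPKM in UM-UC-3, 1.96 in the library labelled 5637 sh-NC and 0.501 to 0.578 in the 5637 hairpin libraries, and *TIE1* alone reached 1 FPKM. *CDH5* was at most 0.0750 FPKM. Of 11 macrophage markers only *CD68*, which encodes a lysosomal protein, reached 1 FPKM. It was 15.4, 29.2 and 13.0 FPKM in UM-UC-3 (control first), 31.0 in the library labelled 5637 sh-NC, and 0.749 and 0.826 with the hairpins in 5637. *CD68* passed the filter through UM-UC-3 alone, where it was high, so its call as lower in 5637 carries no weight. Of 7 fibroblast markers only *COL1A1* reached 1 FPKM, at 7.92 and 6.37 with the hairpins in 5637 and at most 0.356 elsewhere. It passed the filter through 5637 alone, so its call as higher there carries no weight either. Of 14 epithelial markers, 10 were tested and called higher in 5637, but 8 of these passed the filter through 5637 alone, and *UPK1A*, not tested, was 0.338 and 0.410 FPKM with the hairpins in UM-UC-3 and 0 and 0.0485 in 5637. The epithelial list summed to 22.4 to 31.9 FPKM in UM-UC-3, 27.7 in the library labelled 5637 sh-NC and 771 to 1054 in the 5637 hairpin libraries. The 3 mesenchymal genes were called lower in 5637, *VIM*, encoding vimentin, at 116 and 155 FPKM with the hairpins in UM-UC-3 and 3.85 and 4.14 in 5637, *ZEB1* at 12.7 and 8.67 against 0.0264 and 0.00774, and *CDH2* at 24.8 and 19.9 against 8.18 and 11.9. Of the 3, *ZEB1* passed the filter through UM-UC-3 alone. These differences in *CD68*, *COL1A1* and the epithelial and mesenchymal genes lay between the same libraries as that of *NRP1* and *NRP2*. *COL1A1* and the epithelial genes tested ran in the same direction, and *CD68* and the mesenchymal genes in the opposite one. The part of any of them in the difference of *NRP1* and *NRP2* was not tested.

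The genes whose profiles over the 6 libraries were nearest to each member were found among 11542 genes with a symbol, by the root mean square difference of log2 levels centred on their mean. Among the nearest to *VEGFA* were *MYLK-AS1* (0.17) and *ZFP36* (0.18), a gene for a protein that destabilises mRNA. *ZFP36* was 3.05, 8.86 and 5.04 FPKM in UM-UC-3 (control first, then the hairpins in order) and 8.22, 2.74 and 3.15 in the libraries labelled 5637. Fragments of the antisense gene *MYLK-AS1* cannot be told apart from those of its partner unless strand was used in counting. *VEGFC* was nearest to *CTDNEP1* (0.040), *TMEM43* (0.055) and *PDCD2L* (0.077), and *VEGFB* to *GPATCH2* (0.050), *NFIX* (0.053) and *ZNF865* (0.055). *NRP1* was nearest to *GLUL* (0.089), encoding glutamine synthetase, *JARID2* (0.093), encoding a partner of the PRC2 complex, and the pseudogene *PCNPP3* (0.10). *NRP2* was nearest to *TPBG* (0.038), *FSTL1* (0.12) and *TP53TG1* (0.13), and *TPBG* was 2.86, 6.15 and 2.59 FPKM in UM-UC-3 and 4.33, 10.1 and 12.9 in the libraries labelled 5637. These are likenesses over 6 libraries only, and they carry no test.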

How the data were processed

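RNA from the 6 libraries was sequenced on an Illumina instrument after a stranded mRNA kit. Per the submitters' processing notes, HISAT2 and hg38 were used. The counting program and annotation are not given in the sources used here. The authors deposited FPKM for 50869 genes in a single table, of which 1 had no values and was not used. Depths were recovered from the FPKM of single-exon genes with lengths of GENCODE 29, taking values within 0.05 of a whole number as whole. For each member, lengths from its longest transcript up were searched. The smallest that put all 6 values within 0.01 of a whole number gave its fragments. This length equalled the summed exons of GENCODE 29 except for *VEGFA*, *FLT1* and *KDR*.

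Log2(FPKM + 0.5) was compared with Python 3.11.15 (numpy 2.4.6, pandas 2.3.3, scipy 1.17.1) and with limma 3.58.1 in R 4.3.3 (eBayes with a trend), keeping genes that averaged 1 FPKM or more in the libraries used. Calls were made at an adjusted p under 0.05. Scripts were tested on simulated data. The members and lists were chosen with earlier results of these data known. The genes named were the members, *LINC01296*, at most 4 of each list that were 2-fold changed with both hairpins or called by limma, and the 3 nearest profiles of each member that averaged 1 FPKM or more. *BNIP3*, *EPCAM*, the markers, *SEMA3E* and *FIGF* were added after their values were seen, and 2 genes that the rule names are not reported here. No count model was fitted, the deposited values being FPKM. Samples were grouped by their labels. Alternatives were other pseudocounts, filters, thresholds and scalings, limma without a trend, other covariates and leaving out each library.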

Additional observations from a re-analysis of the deposited data

Results flagged for a closer look

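*VEGFA* lay on opposite sides of the sh-NC library in the 2 sets of libraries. It was higher with both hairpins than in the control of UM-UC-3, by 1.82 and 0.86 on the log2 scale, and with both it was below the library labelled 5637 sh-NC, at -1.61 and -0.996. In an interaction model with 2 residual degrees of freedom, the difference from sh-NC in libraries labelled 5637 minus that in UM-UC-3 was -2.65 ± 0.69 (SE; limma adjusted p = 0.0541), which did not pass 0.05, where 18.8% of 12717 genes were called. Over the alternatives the adjusted p ranged from 0.0539 to 0.192. The difference rests on the library labelled 5637 sh-NC, whose levels were nearer to UM-UC-3 than to 5637, so a change with the hairpins and a difference between that library and its label cannot be told apart in 5637.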

How the results depend on the processing

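No paired analysis was possible because all libraries share the replicate number 1, which pairs nothing; the hairpin, which is common to the lines, was used as a covariate instead. In UM-UC-3, 1 member (*VEGFA*) was higher by a 1.5-fold threshold or with sh-LNMAT1#1 alone, against 0 otherwise. Against the library labelled 5637 sh-NC, 1 member (*VEGFA*) was lower with a pseudocount of 0.1, 75th-percentile scaling, a 1.5-fold threshold or sh-LNMAT1#1 alone, against 0 otherwise, and 0 members were higher with a filter of 5 FPKM, which drops *NRP1* and *NRP2*, or at 4-fold. Leaving out 1 library, the pooled comparison called 0 to 1 members higher. Between the lines, 1 member was higher without a filter and 0 with a filter of 5 FPKM, and leaving out 1 library gave 0 to 2 higher and 0 to 1 lower. 1 member was lower without a filter (*FLT4*, -0.38, limma adjusted p = 0.0276) and with the hairpin as a covariate (*VEGFA*, -1.17, limma adjusted p = 0.0423). *VEGFA* was also called without UM-UC-3 sh-LNMAT1#2 (limma adjusted p = 0.0314) and *VEGFC* without UM-UC-3 sh-LNMAT1#1 (limma adjusted p = 0.0221). *NRP2* was not called without a filter (limma adjusted p = 0.113). Where a library left out leaves 1 in an arm, that library is assumed to vary like the others. The cause of these changes was not tested. No value turned its direction past a threshold. Counts of members stayed within 1.5 times in the other 81 combinations of a count and an alternative. Bounds on the floor from transcript lengths were not run, since whole fragments gave it.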
